A study of Homo sapiens with 79 samples.

Results

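The mRNAs of the proteasome were examined in RNA recovered with 24 proteins from K562 cells, an established human leukemia line with erythroid features. Members were every row of the gene table whose symbol is PSM, then a letter from A to G, then a number, which gave 49 of 48453 rows and 48 symbols, as PSMA2 has a second row for a readthrough locus joined to a neighbouring gene. In fRIP, living cells are cross-linked with formaldehyde and lysed, an antibody against 1 protein is added, and the RNA that comes down with it is sequenced, together with input RNA of the same lysates. The targets were RNA binding proteins (PABP, HUR, IMP1, ADAR, HNRNPU and HNRNPH1) and proteins of chromatin and the nucleus (SUZ12, EZH2, WDR5, RBBP5, PCAF, CBP, HDAC1, LSD1, PHF8, DNMT1, CHD1, CHD4, CHD7, CTCF, STAG2, NUP98, and CBX3 in total and phosphorylated form). Of these, 22 had 3 libraries and EZH2 and STAG2 had 2, and the 9 input libraries are labelled as 3 sets of 3. All cells were of the same line, and no group carried a treatment or a deletion. Per the study's text, the replicates of a fRIP were made from separate lysates on different days, so the spread between libraries includes that between lysates of the line.

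The proteasome is the large protease that degrades proteins tagged with ubiquitin. Its core particle is a stack of rings, with outer alpha rings made of PSMA subunits and inner beta rings made of PSMB subunits, of which PSMB5, PSMB6 and PSMB7 carry the active sites. PSMB8, PSMB9 and PSMB10 replace these in the immunoproteasome, which is induced by interferon. The regulatory particle that caps the core has a base with the PSMC ATPases, which unfold substrates, and a set of PSMD subunits that bind and deubiquitinate them. PSME1 to PSME4 form alternative activators, PSMF1 is an inhibitor, and the PSMG genes encode chaperones that assemble the core. The subunits are assembled in fixed proportions, and their genes are known to be transcribed together under NFE2L1.

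Sequences are shown for the transcription start, where some members hold a motif of the factor named above. A promoter of RefSeq (assembly GRCh38.p14, 250 bases before the start to 50 after it) was matched for 42 of the 48 symbols. The motif TGACNNNGC, the core of the element read by NFE2L1 and related factors with small MAF proteins, was searched on both strands and was found in 15 of these 42 promoters (35.7%), and in 13.3% of all 35116 promoters. By class, it was in 1 of 7 PSMA, 2 of 8 PSMB, 2 of 6 PSMC, 5 of 13 PSMD and 5 of 8 other promoters. Stretches of 30 bases with the motif in capitals are given for 4 members, PSMA4 (chr15:78540650-78540679, plus strand), PSMB3 (chr17:38752627-38752656, plus strand), PSMD3 (chr17:39980760-39980789, plus strand) and PSMD12 (chr17:67366723-67366752, minus strand). A match of these letters is no measure of binding.
PSMA4: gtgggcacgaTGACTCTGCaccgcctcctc
PSMB3: gcctccgtttTGACTTTGCaaccaaactac
PSMD3: tcccctttgtTGACTCGGCcatcggcctgc
PSMD12: agacaaaaccTGACGCTGCaggctggagtg

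Levels are FPKM, fragments scaled for transcript length and library size, as deposited, so that genes can be compared per length. Of the 49 rows, 47 passed the filter of at least 1 FPKM in at least 2 of all 79 libraries. In input, the median over all 49 rows was 62.9 FPKM. PSMB1, a beta ring subunit, was the highest at 333 ± 77.5 FPKM (SD, n = 9), and PSMA1 was the highest alpha subunit at 238 ± 28.5 FPKM. PSMC3 led the ATPases at 112 ± 26.6 FPKM and PSMD2, a scaffold of the regulatory particle, led its class at 141 ± 34.9 FPKM. The chaperone PSMG1 stood at 183 ± 46.5 FPKM. At the other end were PSMC2 at 21.5 ± 5.92 FPKM, PSMG2 at 22.6 ± 3.72 FPKM and PSMD10 at 38.5 ± 7.46 FPKM. The immunoproteasome subunits PSMB8 and PSMB9 were scarce, at 1.82 ± 0.734 and 1.35 ± 0.811 FPKM. PSMA8, known from testis, and PSMB11, known from thymus, had medians of 0 FPKM in input and highest values of 0.12 and 0.028 FPKM, and did not pass the filter. Of the K562 markers, HBG2, HBE1, TFRC and GATA1 had input medians of 944, 616, 297 and 85.3 FPKM, while ALB, MS4A1 and CD2, of other cell types, stood at 0.141, 0 and 0 FPKM. LYZ and CD3D, known from myeloid and T cells, were present at medians of 38.2 and 26.9 FPKM.

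The input sets differed in the members themselves, and this touches every comparison. Set 1 was lower than set 2 in 44 of the 47 members and lower than set 3 in 43, by a median of 0.58 on the log2 scale in both cases, while sets 2 and 3 differed by a median of 0.01. PSMB1 stood at 200, 263 and 256 FPKM in set 1, at 352, 386 and 443 in set 2 and at 388, 368 and 340 in set 3. Results below compare a fRIP with all 9 input libraries, and in places the value against the 3 libraries of the best matching set is given beside it. Shares and medians of all genes or isoforms are given for the comparison with all 9 inputs only. Counts against a matching set, or after centring each library on its median, thus have no such share beside them. Centring shifts all genes of a fRIP by the same amount, so the shares of all genes can move too. Library depth, estimated from the smallest steps between low values, was about 1.93 to 2.29 M fragments for ADAR, 6.42 to 7.52 M for HNRNPH1, 19.6 to 19.8 M for PABP and 11.8 to 30.2 M for input (M, mega), so single values are least precise for ADAR.

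How many proteasome mRNAs were called, and in which direction, varied with the fRIP. A member was called enriched or depleted where limma, fitted over 25442 genes on log2(FPKM + 1), gave a Benjamini-Hochberg p below 0.05 and the level differed by over 2-fold. Over the 24 fRIPs this gave 40 enriched and 110 depleted pairs of member and fRIP out of 1128 (3.55% and 9.75%, beside 6.90% and 5.52% over all genes). These totals pool all 9 inputs and depend on that choice. Against the matching sets most fRIPs with depleted members had fewer of them, but HUR, EZH2 and DNMT1 fRIP had more. Depleted PSMA and PSMB members went from 10 to 1 in HDAC1 fRIP and from 13 to 7 in SUZ12 fRIP. In EZH2 fRIP they went from 4 to 9. A general depletion of members thus cannot be read from the total. The counts that follow here are against all 9 inputs. PABP fRIP had 20 of 47 members enriched and none depleted, beside 11.1% enriched and 14.7% depleted among all genes tested. HNRNPH1 fRIP had 23 depleted and 1 enriched, beside 7.90% and 24.5% of all genes. HUR fRIP had 20 depleted and none enriched, beside 6.93% and 6.42%, and SUZ12 fRIP had 17 depleted and 1 enriched, beside 8.60% and 15.3%. HDAC1 fRIP had 14 depleted and none enriched (5.35% and 8.42% of all genes), HNRNPU 8 and none (2.52% and 13.1%), EZH2 4 and none (9.13% and 10.5%) and CBX3 3 and none (3.65% and 7.45%). ADAR fRIP had 10 depleted and 5 enriched (4.31% and 26.6%), and IMP1 9 and 1 (10.5% and 4.23%). Enriched members, with none depleted, numbered 6 for DNMT1 (9.56% enriched and 6.88% depleted among all genes), 4 for CHD4 (2.91% and 9.79%) and 1 for PCAF (0.515% and 8.54%). Shares for IMP1, EZH2, CBX3, DNMT1 and CHD4 should be read against those of all genes, since the members' shares in the direction with more calls were 6.38% to 19.1%. PSMG4 was the 1 depleted member in LSD1 fRIP (6.66% of all genes depleted and 0.814% enriched) and in STAG2 fRIP (3.36% and 0.979%), and the 1 enriched member in WDR5 fRIP (3.9% enriched and 6.71% depleted). The other 8 fRIPs (CBP, CHD1, CHD7, CTCF, NUP98, PHF8, RBBP5 and phospho-CBX3) had no member called. Among all genes the shares enriched and depleted were 9.08% and 3.78% in CBP fRIP, 0.424% and 1.0% in CHD1, 0.99% and 0.896% in CHD7, 0.424% and 0.79% in CTCF, 0.263% and 5.11% in NUP98, 3.18% and 1.71% in PHF8, 2.28% and 0.731% in RBBP5, and 2.58% and 2.91% in phospho-CBX3. With changes of any size, limma put 12 of 47 members higher in CBP fRIP (20.3% of all genes) and 11 in CHD1 fRIP (5.8%), and 9 lower in phospho-CBX3 fRIP (12.4%), at an adjusted p below 0.05. The CBP count is near the share of all genes, and PSMD5 was lower in both CBP and CHD1 fRIP.

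Of the 47 members, 44 (93.6%) were called in at least 1 fRIP and 23 (48.9%) were enriched in some and depleted in others, beside 79.4% and 31.3% of all genes tested. PSMC1, PSMC6 and PSMD11 were called in none. The member called most often in each class was PSMA2 (1 enriched and 7 depleted), PSMB6 (1 and 7), PSMC2 (none and 2), PSMD9 (3 and 2) and, among the activators and chaperones, PSMG3 (2 and 6). Some of these values are uncertain, since the main transcript shares many of its 25-base stretches with another annotated gene or pseudogene, by 99.0% for PSMC1, 86.5% for PSMA6, 79.2% for PSMB10, 60.5% for PSMD9 and 30.7% for PSMD2. On GRCh37, the build of the files, PSMB1 lies at chr6:170844208-170862395, PSMB2 at chr1:36065142-36107127, PSMD12 at chr17:65334032-65362721 and PSME4 at chr2:54091206-54198130, all on the minus strand.

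**Figure D1:**
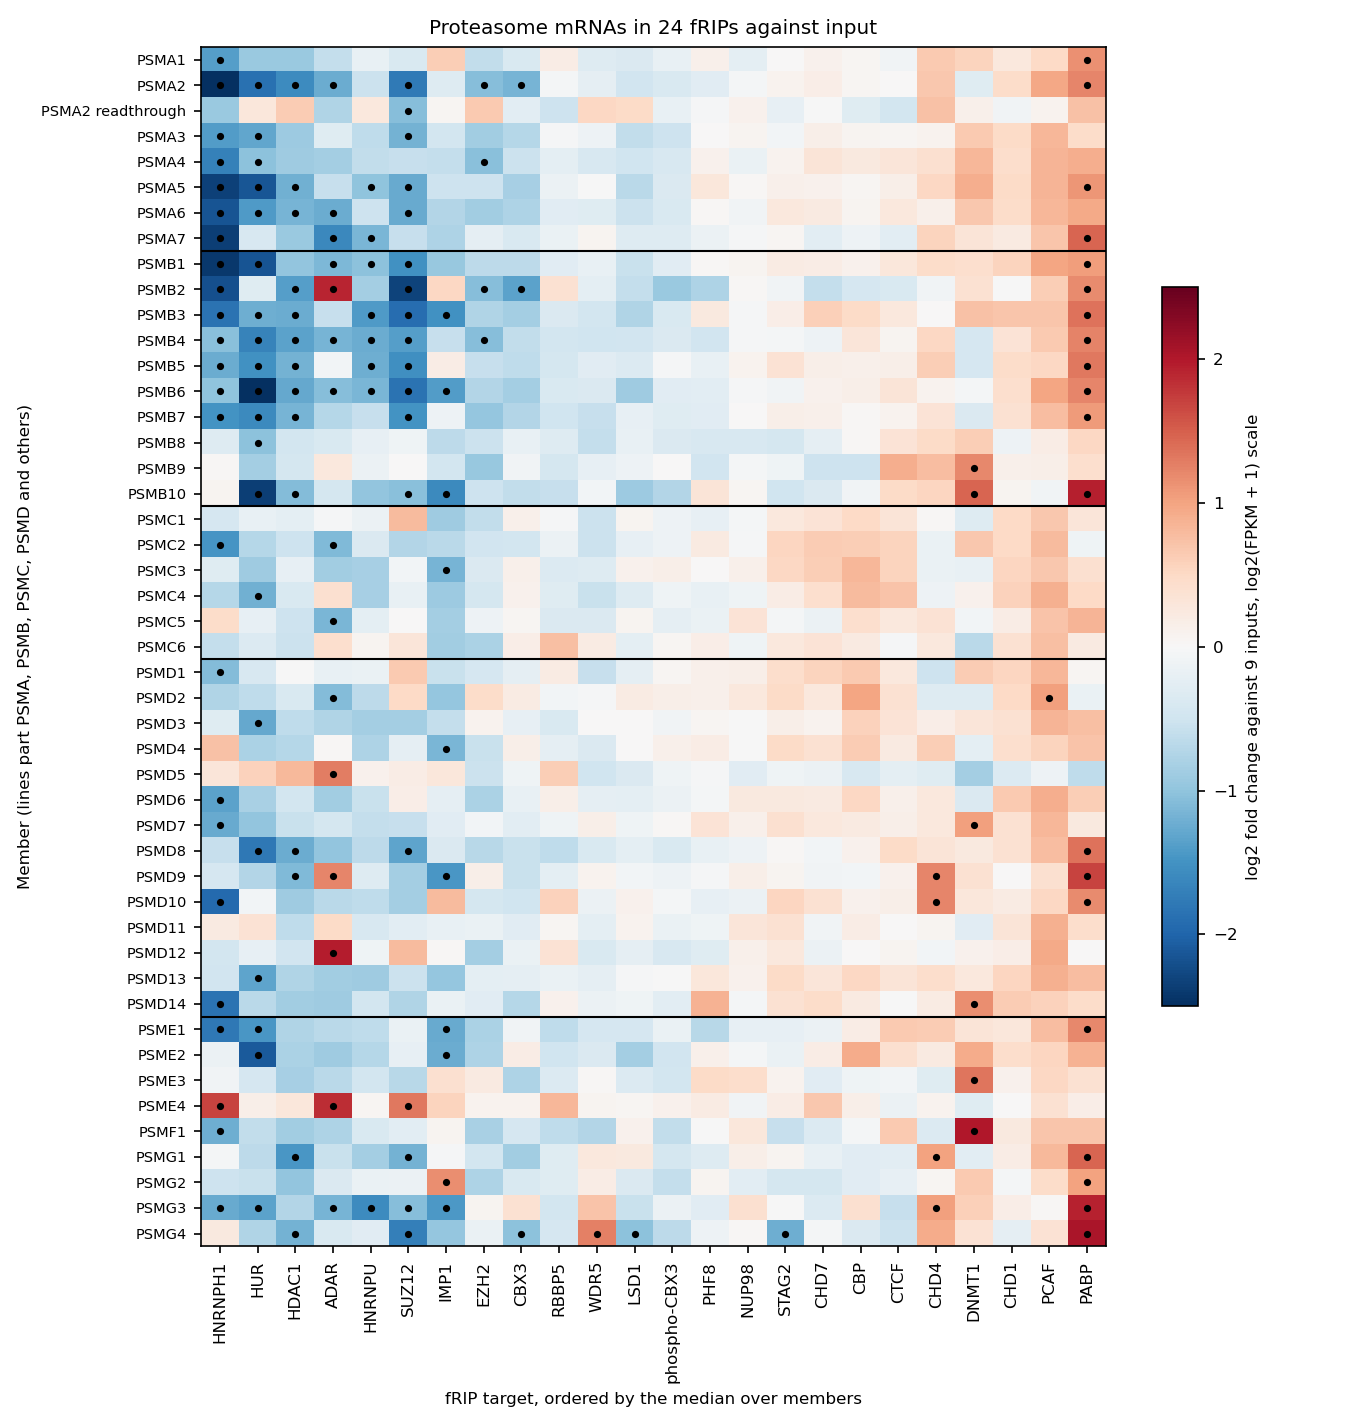
Log2 fold change of each of the 47 tested members (rows, grouped by class) in each fRIP against the 9 input libraries (columns, ordered by the median over members), on the log2(FPKM + 1) scale; colours end at 2.5 in either direction. Dots mark members called at an adjusted p under 0.05 and more than 2-fold; they crowd in PSMA and PSMB rows on the left and in PABP on the right.

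Against all 9 inputs PABP, the poly(A) binding protein, gave the highest median of the members, 0.84 on the log2 scale, while the median of all genes was -0.15. Against the matching sets PABP was above DNMT1 in the median of core members (0.93 and 0.79). It was below DNMT1 in regulatory members (0.22 and 0.44) and in the remaining members (0.78 and 0.94). In 33 of the 47 members all 3 PABP libraries lay above all 9 input libraries. PSMG4, a chaperone of core assembly, had 180, 182 and 161 FPKM in PABP fRIP and 27.6, 44.4 and 59.1 FPKM as the lowest, median and highest input. Its log2 fold change was 2.03 (SE 0.17, limma adjusted p 4.47e-16), and the groups did not overlap. PSMB10, the inducible beta subunit, had 117, 109 and 109 FPKM against 19.0 to 49.8 FPKM in input (log2 fold change 1.95, SE 0.22, limma adjusted p 2.97e-11). PSMG3, another chaperone, had 144, 144 and 147 FPKM against 25.5 to 62.1 FPKM (1.93, SE 0.21, limma adjusted p 9.05e-12). The 3 libraries thus agreed closely for each of these genes and stood clear of input. All 4 PSMG chaperones were enriched, as were 8 of 10 PSMB and 4 of 8 PSMA members, but 3 of 14 PSMD members and none of the 6 PSMC members were. PSMD5, a chaperone of the regulatory particle, was the lowest member, with a log2 fold change of -0.63 and all 3 libraries below input, short of the 2-fold limit. PSMD2 did not pass the test in PABP fRIP (log2 fold change -0.17, SE 0.19, limma adjusted p 0.468). Against its matching input set, 12 members were enriched, and after centring each library on its median 31 were.

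In fRIP of PCAF, a histone acetyltransferase, nearly the whole set was higher than input by a smaller amount. Of the 47 members, 39 were higher at a limma adjusted p under 0.05 with changes of any size and none was lower, beside 10.7% of all genes higher and 22.8% lower. The median was 0.70 and the median of all genes -0.16, and in 29 members all 3 libraries lay above all inputs. Against the matching set the median was 0.55, with core members at 0.44 and regulatory members at 0.60, beside 0.70 and 0.78 against all inputs. PSMD2 was the 1 member past 2-fold, with 230, 326 and 292 FPKM against 85.5, 149 and 187 FPKM as lowest, median and highest input (log2 fold change 1.03, SE 0.19, limma adjusted p 1.72e-05). PSMB1 had 554, 698 and 699 FPKM against 200 to 443 FPKM. The count of members past 2-fold moved widely, from 0 against the matching set of inputs, with or without the replicate number as a block, to 39 after centring. Leaving out 1 library gave 0 to 9, with 9 without the first PCAF library and 0 without the second, the third or any library of input set 1. PABP and PCAF differed in the class that was highest, as the medians of PSMA, PSMB, PSMC and PSMD were 0.83, 0.63, 0.72 and 0.83 in PCAF fRIP and 1.02, 1.2, 0.35 and 0.53 in PABP fRIP; this difference was not tested.

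DNMT1, the maintenance DNA methyltransferase, and CHD4, a chromatin remodeler, had few members enriched. In DNMT1 fRIP PSMF1, the proteasome inhibitor, rose most, with 99.7, 91.6 and 109 FPKM against 17.6, 25.1 and 30.3 FPKM in input (log2 fold change 2.00, SE 0.16, limma adjusted p 2.03e-16). PSMB10 followed with 72.9, 62.0 and 109 FPKM against 19.0 to 49.8 FPKM (1.45, SE 0.22, limma adjusted p 1.55e-07), and PSME3, the nuclear activator, with 165, 135 and 245 FPKM against 43.5 to 112 FPKM (1.35, SE 0.25, limma adjusted p 9.13e-06). For these genes no DNMT1 library overlapped input. PSMD7, PSMD14 and PSMB9 were the other enriched members, with PSMD14 at a log2 fold change of 1.16 and PSMB9 overlapping the input range. The matching input set gave 13 enriched members and 1 depleted. In CHD4 fRIP the enriched members were PSMD9 and PSMD10, which are chaperones of the base, and PSMG3 and PSMG1. PSMD9 had 107, 112 and 122 FPKM against 33.8 to 64.1 FPKM, a log2 fold change of 1.23 (SE 0.14, limma adjusted p 1.25e-10). PSMD10 had 89.2, 94.8 and 85.1 FPKM against 26.8 to 49.3 FPKM, a log2 fold change of 1.22 (SE 0.18, limma adjusted p 5.19e-08). The count for CHD4 fell to 2 without any of the 3 libraries of input set 1, and was 7 against that set and 12 after centring.

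HNRNPH1, a splicing regulator that binds G-rich RNA, had a median of -0.93 for the members, the lowest of the 24 fRIPs against all inputs, while the median of all genes was 0.34. Against the matching sets it was -0.63, and that of HUR fRIP, at -1.04, was lower. PSMA2, an alpha ring subunit, had 18.7, 17.8 and 24.5 FPKM against 95.8, 158 and 177 FPKM as lowest, median and highest input (log2 fold change -2.73, SE 0.19, limma adjusted p 1.69e-19). PSMB1 had 53.9, 53.6 and 74.3 FPKM against 200 to 443 FPKM (-2.42, SE 0.19, limma adjusted p 2.16e-17). PSMA7 had 31.3, 32.9 and 40.9 FPKM against 115 to 265 FPKM (-2.36, SE 0.17, limma adjusted p 4.66e-18). None of these libraries reached the lowest input. Depletion covered 7 of 8 PSMA and 7 of 10 PSMB members, 1 of 6 PSMC and 5 of 14 PSMD members. PSME4, the large nuclear activator also called PA200, went the other way, with 166, 172 and 196 FPKM against 46.5, 56.2 and 58.3 FPKM in input (log2 fold change 1.70, SE 0.13, limma adjusted p 2.32e-17). The split of 1 enriched and 23 depleted became 2 and 13 against the matching set, and 0 and 36 after centring, where the log2 fold change of PSME4 was 0.96. PSMA2 shares 96.8% of the 25-base stretches of its main transcript with its readthrough locus, so reads could be divided between them; the readthrough row stood at a lowest value of 6.35 FPKM in input.

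HUR, which binds U-rich elements in 3′ UTRs, had a median of -0.84 for the members against 0.08 for all genes. PSMB6, the constitutive caspase-like subunit, had 11.1, 12.5 and 17.2 FPKM against 44.2, 90.2 and 115 FPKM in input (log2 fold change -2.51, SE 0.23, limma adjusted p 3.23e-14). PSMB10 had 6.08, 4.04 and 4.27 FPKM against 19.0 to 49.8 FPKM (-2.35, SE 0.22, limma adjusted p 1.45e-13), and PSMB1 60.2, 77.8 and 78.5 FPKM against 200 to 443 FPKM (-2.16, SE 0.19, limma adjusted p 6.70e-15). HUR and input did not overlap in these genes. Depleted members were 5 of 8 PSMA, 8 of 10 PSMB, 1 of 6 PSMC and 3 of 14 PSMD. The count rose from 20 to 25 against the matching set and to 27 after centring.

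In fRIP of SUZ12, a subunit of a Polycomb repressive complex, the medians of core and regulatory members lay far apart. Of the 18 tested PSMA and PSMB members 13 were depleted, with a median of -1.26, and of the 20 PSMC and PSMD members 1 was, with a median of -0.21. The matching set gave medians of -0.86 and 0.06 and centring gave -1.28 and -0.23. PSMB2 had 9.23, 8.20 and 12.2 FPKM against 33.4, 51.8 and 89.1 FPKM in input (log2 fold change -2.31, SE 0.23, limma adjusted p 3.29e-13). PSMB3 (-1.91) and PSMB6 (-1.84) followed, with 28.6 to 47.6 and 18.7 to 28.2 FPKM against lowest inputs of 75.9 and 44.2 FPKM, and no library of the 3 genes overlapped input. PSMC5, an ATPase, was at a log2 fold change of 0.01 (SE 0.16), with a limma adjusted p of 0.983. Of the 6 PSMC members 2 were higher and 1 lower with changes of any size. They ranged from -0.73 for PSMC2 to 0.78 for PSMC1. PSME4 was again the exception, with 109, 146 and 161 FPKM against 46.5 to 58.3 FPKM (1.33, SE 0.13, limma adjusted p 2.55e-13). The counts of 1 enriched and 17 depleted became 3 and 8 against the matching set.

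Core members are here all tested PSMA and PSMB rows, with the PSMA2 readthrough row. Regulatory members are all PSMC and PSMD rows, with the chaperones PSMD5, PSMD9 and PSMD10. A lower median for core than for regulatory members was seen in 18 of the 24 fRIPs and a higher one in 6, and against the matching sets in 20 and 4. In HNRNPH1 fRIP the medians were -1.45 and -0.52, in HUR fRIP -1.36 and -0.69, in HDAC1 fRIP -1.12 and -0.53, and in CBX3 fRIP -0.65 and -0.20. Against the matching sets they were -1.13 and -0.197 in HNRNPH1 fRIP and -1.63 and -0.899 in HUR fRIP. In HDAC1 fRIP they were then -0.739 and -0.235, and in CBX3 fRIP -0.251 and 0.139. PABP, with 1.12 and 0.45, CHD4, with 0.50 and 0.18, and DNMT1, with 0.49 and 0.11, had them in the reverse order. These are descriptions, as the comparisons share their input libraries.

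**Figure D2:**
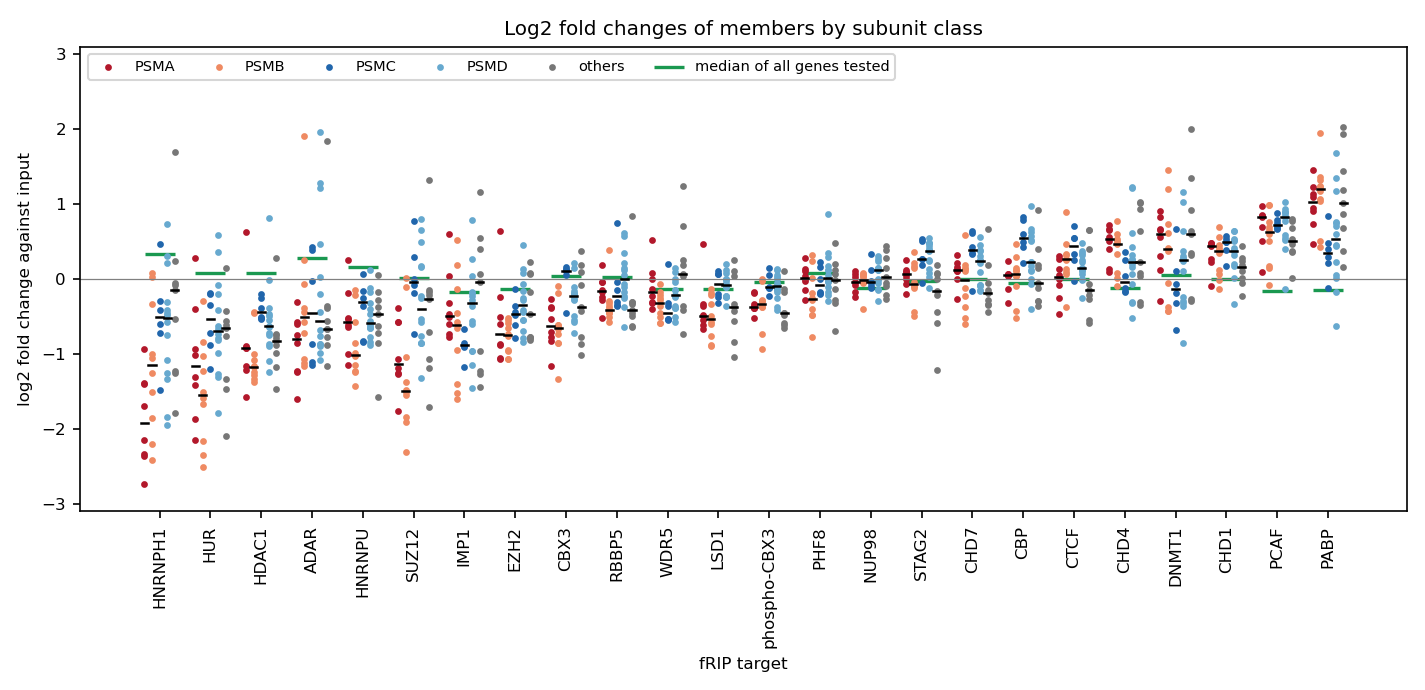
Log2 fold change against input of each tested member (points), by subunit class within each fRIP (fRIPs ordered by the median over members); black ticks are class medians and green bars the median of all 25442 genes. The medians of PSMA and PSMB lie below those of PSMC and PSMD in HNRNPH1, HUR and SUZ12 fRIP and above them in PABP fRIP, while the points of the classes overlap.

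Smaller groups were depleted in HDAC1, HNRNPU and IMP1 fRIP, and their size moved with the input set. HDAC1 fRIP, with a median of -0.83, had 7 of 10 PSMB, 3 of 8 PSMA, 2 of 14 PSMD and 2 of 4 PSMG members depleted. PSMA2 had 31.5, 54.0 and 57.8 FPKM against 95.8 to 177 FPKM (log2 fold change -1.58, limma adjusted p 2.54e-10), PSMG1 50.1, 74.0 and 69.8 FPKM against 109 to 262 FPKM (-1.46, limma adjusted p 1.40e-08), and PSMB2 14, 23.0 and 23.5 FPKM against 33.4 to 89.1 FPKM (-1.37, limma adjusted p 1.43e-06), all without overlap. In HNRNPU fRIP PSMG3 had 10.7, 11.3 and 13.7 FPKM against 25.5 to 62.1 FPKM (-1.57, limma adjusted p 9.67e-09), with PSMB3 at -1.42 and PSMB4 at -1.24 next. Against the matching set, set 1, the counts fell from 14 to 2 for HDAC1 and from 8 to 1 for HNRNPU, while centring raised them to 29 and 30. IMP1 fRIP, of a protein that binds mRNA in the cytoplasm, had its lowest class median in the ATPases (PSMC, -0.88), and its 9 depleted members included PSMB10 at 8.17, 8.41 and 9.44 FPKM against 19.0 to 49.8 FPKM (-1.60, limma adjusted p 1.74e-08), PSMB3 at -1.52 and PSMD9 at -1.46. PSMG2 rose in IMP1 fRIP, with 50.8, 53.6 and 49.9 FPKM against 18 to 27.6 FPKM (1.17, SE 0.14, limma adjusted p 7.41e-10). The IMP1 counts of 1 enriched and 9 depleted became 2 and 4 against the matching set and 4 and 3 after centring.

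In fRIPs with few calls PSMG4 and PSMB2 recurred. PSMG4 had 112, 108 and 84.0 FPKM in WDR5 fRIP (log2 fold change 1.25, limma adjusted p 1.17e-08) and 20.6 and 14.7 FPKM in STAG2 fRIP (-1.22, limma adjusted p 8.54e-06), against 27.6 to 59.1 FPKM in input. PSMB2 had 21.1, 14.5 and 26.6 FPKM in CBX3 fRIP (-1.34, limma adjusted p 2.87e-06) and 27.5 and 21.8 FPKM in EZH2 fRIP (-1.06, limma adjusted p 9.32e-04), below every input. Against the matching set no member was depleted in CBX3, LSD1 and STAG2 fRIP, 1 PSMC or PSMD member was enriched in STAG2 fRIP, and EZH2 fRIP had 10 depleted. After centring EZH2 and LSD1 fRIP had none depleted, and leaving out 1 library gave 1 to 7 for EZH2. With a replicate block 2 of the 4 EZH2 calls were left and none of STAG2, whose second library has no replicate number that matches the labels and was given a level of its own.

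In fRIP of ADAR, which edits adenosine in double-stranded RNA, members moved both ways. Depletion reached 10 of them and enrichment 5, and the median was -0.67 with 0.29 for all genes. Against the matching set the medians of core, regulatory and remaining members were -0.447, -0.207 and -0.209. After centring they were -1.638, -1.54 and -1.645. PSMD12, a subunit of the lid, had 170, 146 and 162 FPKM against 28.6, 37.6 and 58.5 FPKM in input (log2 fold change 1.96, SE 0.18, limma adjusted p 1.68e-14). PSMB2 had 185, 169 and 254 FPKM against 33.4 to 89.1 FPKM (1.91, SE 0.23, limma adjusted p 1.13e-10), and PSME4 155, 213 and 227 FPKM against 46.5 to 58.3 FPKM (1.84, SE 0.13, limma adjusted p 4.45e-19). PSMD5 at 1.28 and PSMD9 at 1.21 completed the group, and all 5 were clear of input in every library. On the other side PSMA7 had 49.8, 56.7 and 73.9 FPKM against 115 to 265 FPKM (-1.60, SE 0.17, limma adjusted p 4.66e-12), followed by PSMA6 at -1.24 and PSMA2 at -1.23. PSMB1, PSMB4, PSMB6, PSMC2, PSMC5, PSMD2 and PSMG3 were at -1.07 to -1.17, and of the 10 depleted members PSMB6 and PSMD2 overlapped the input range. The split of 5 and 10 became 5 and 1 against the matching set and 0 and 36 after centring, where PSMD12, PSMB2 and PSME4 stood at 0.98, 0.93 and 0.86.

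**Figure D3:**
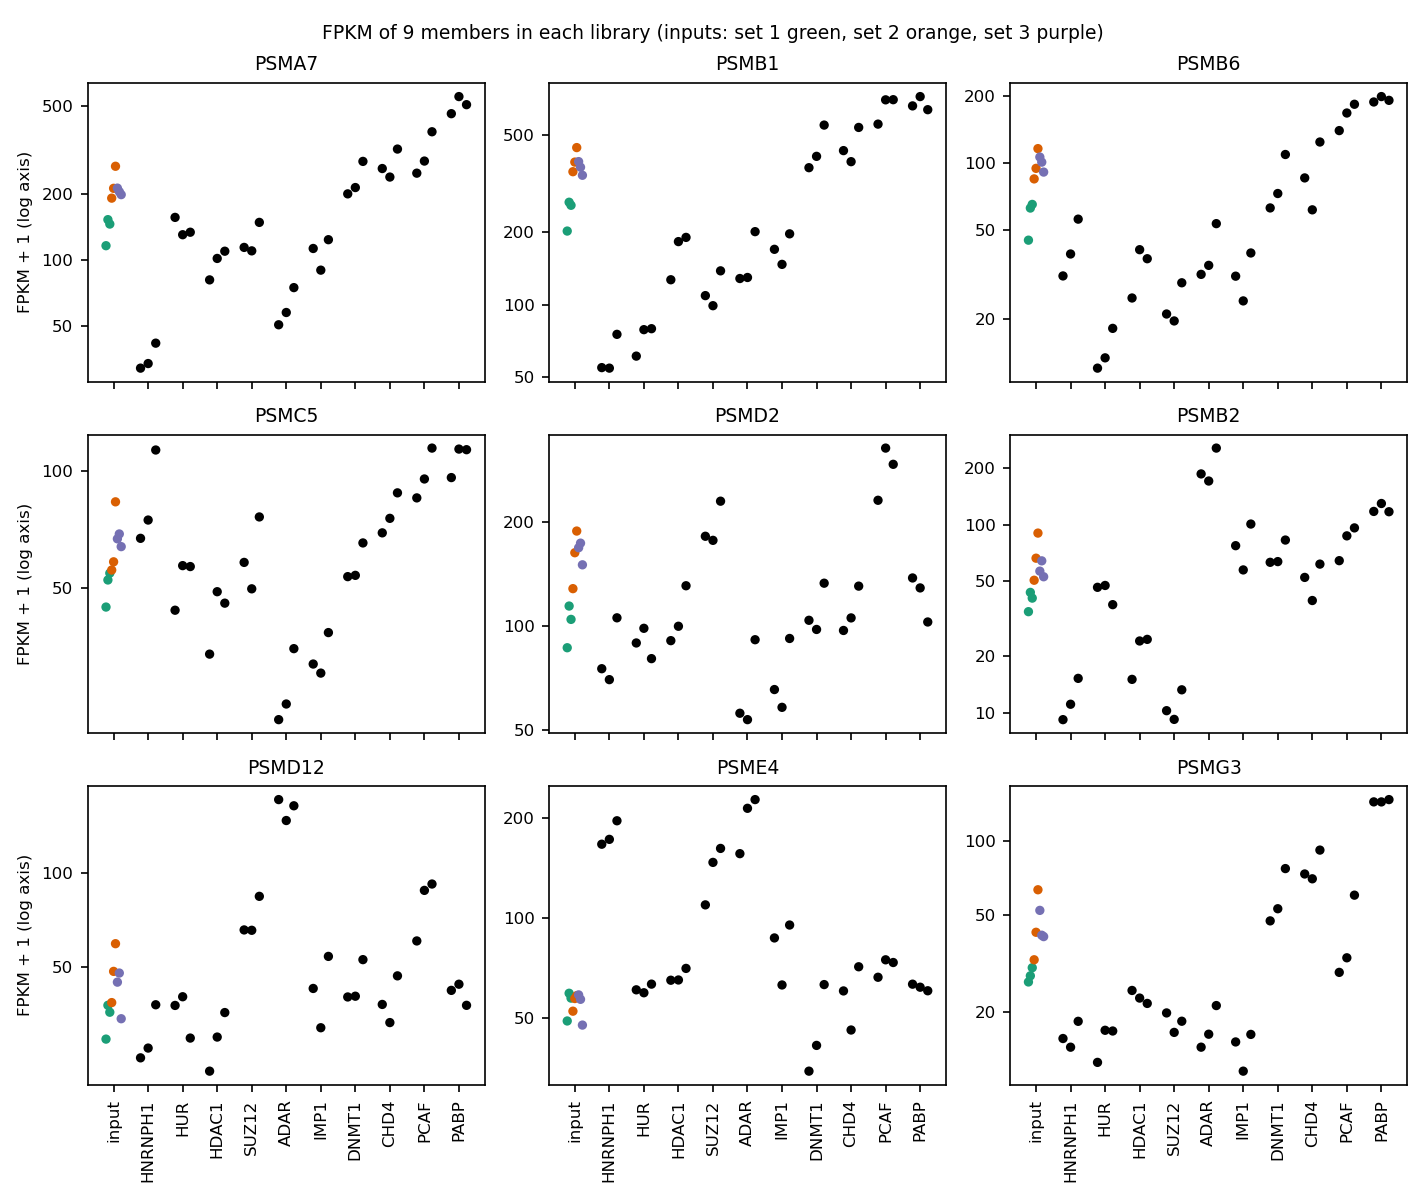
FPKM + 1 on a log axis in each library for 9 members, in input and 10 fRIPs; points are libraries and input points are coloured by set. PSMB2 and PSMD12 are high in ADAR libraries and PSME4 in HNRNPH1, SUZ12 and ADAR libraries, whereas PSMA7, PSMB1 and PSMB6 are low in HNRNPH1 and high in PABP libraries.

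Of the 5 members enriched in ADAR fRIP, 4 carry stretches that recur in many other genes. For each member the 25-base stretches of its coding transcripts were counted that occur, on either strand, in transcripts of 10 or more other genes, a mark of repeats. They made up 7.91% of those of PSMB2, the highest share of all members, 5.11% for PSMD12, 2.07% for PSMD5 and 1.69% for PSMD9, but 0% for PSME4. They were also found in members that ADAR fRIP depleted, as in PSMG3 with 6.69%. Of 18 tested members with such stretches 4 were enriched and 3 depleted, with a median log2 fold change of -0.37, and of 28 without them 1 was enriched and 7 depleted, with a median of -0.75. How far reads from copies elsewhere entered these values was not tested.

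Isoform values are estimates that divide the reads of a gene among its annotated isoforms. Whether reads of unspliced RNA entered them was not tested. For PSMB2 the estimated change lay in the coding isoform of 4426 nt (ENST00000373237), at 185, 169 and 254 FPKM in ADAR fRIP. PSMD12 was divided, as its coding isoform of 4356 nt (ENST00000356126) rose by 2.69 on the log2 scale (limma adjusted p 4.38e-24) while the one of 2437 nt (ENST00000357146) fell by 3.92 (limma adjusted p 7.34e-21). For PSME4 the coding isoform (ENST00000404125) did not pass the test in ADAR fRIP, with a log2 fold change of -0.11 (SE 0.13, limma adjusted p 0.568) and 20.9, 31.4 and 28.3 FPKM against 25.1 to 30.5 FPKM. Its retained intron isoforms ENST00000475694 and ENST00000488687 rose by 4.77 and 3.16, the first with 75.8, 110 and 116 FPKM against at most 3.87 FPKM in input. In HNRNPH1 and SUZ12 fRIP the coding isoform of PSME4 did rise, by 1.07 and 1.18 (limma adjusted p 5.56e-10 and 4.12e-11). By these estimates PSME4 was enriched in ADAR fRIP without its coding isoform and in HNRNPH1 and SUZ12 fRIP with it.

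Retained intron isoforms are transcripts of the annotation that keep an intron and have no open reading frame assigned. Of 432 member isoforms 390 were tested, among them 166 coding and 129 with a retained intron. In SUZ12 fRIP 67 of the 129 were enriched and 3 depleted, from 23 genes on the enriched side, beside 39.8% and 0.87% of all retained intron isoforms tested. In CBX3 fRIP 54 were enriched (32.7% of all), in HNRNPH1 fRIP 52 (39.9%), in CBP fRIP 46 (33.3%), in PHF8 fRIP 40 (19.1%) and in ADAR fRIP 36 (23.0%). Depletion was found for 52 in PABP fRIP (34.3% of all), 46 in CHD4 fRIP (27.0%), 31 in IMP1 fRIP (19.8%), 23 in PCAF fRIP (15.9%) and 22 in EZH2 fRIP (12.8%). Over the 24 fRIPs, 253 depleted pairs became 464 with a pseudocount of 0.1 FPKM and 140 after centring. As the members' shares were 40.3% for HNRNPH1, 40.3% for PABP, 35.7% for CHD4 and 35.7% for CBP, the direction was that of retained intron isoforms at large. Of the 166 coding isoforms of the members, 55 were depleted in HNRNPH1 fRIP (33.1%, beside 18.4% of all coding isoforms), 51 in ADAR fRIP (beside 14.6%), 47 in HUR fRIP (beside 9.63%) and 38 in SUZ12 fRIP (beside 11%), while 40 were enriched in PABP fRIP (beside 13.9%); the differences from all isoforms were not tested. Over the 24 fRIPs, 365 depleted pairs of coding isoform and fRIP became 240 against the matching sets.

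As a share of all FPKM of the members, retained intron isoforms held 8.67% ± 1.57 (SD, n = 9) in input, with 10.1% to 11.2% in set 1, 7.93% to 8.68% in set 2 and 6.62% to 7.51% in set 3. HNRNPH1 libraries held 32.7%, 30.1% and 29.6%, SUZ12 libraries 28.6%, 31.2% and 27.7% and ADAR libraries 26.6%, 29.9% and 24.7%. The libraries of these and of CBX3, HUR, HNRNPU, PHF8, HDAC1, CBP and RBBP5 were all above the highest input, and those of PCAF, PABP, CHD4 and IMP1 all below the lowest. PABP libraries held 5.57% to 6.00%. Over all isoforms of all genes the mean share in ADAR fRIP was 6.59%, under the 8.24% of input, whereas it was 16.9% in HNRNPH1 fRIP and 21.6% in SUZ12 fRIP. Regulatory members had the higher share in SUZ12 fRIP, 38% against 16.1% for core members, and in input, 11% against 5.21%.

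**Figure D4:**
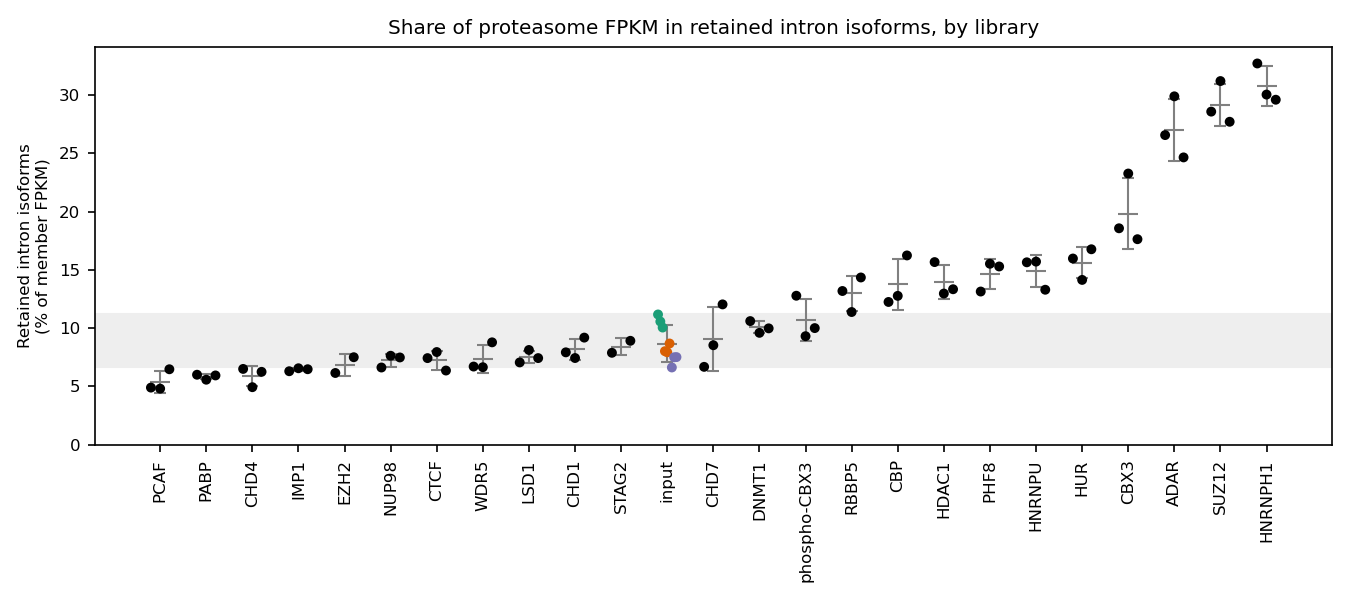
Share of the members' FPKM that falls on retained intron isoforms, in percent, for each library (points; inputs coloured by set), with mean and SD in grey and the range of the 9 inputs as a band. The libraries of 10 fRIPs lie above the band, up to 32.7% in HNRNPH1, and those of 4 lie below it.

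Where such isoforms begin to differ from spliced mRNA is the start of the kept intron. These starts are shown for 4 of the isoforms that hold 1 annotated intron inside an exon and were called in 8 or more fRIPs. Each line has 12 exonic bases, the first 6 bases of the intron in capitals, and 12 more, from GENCODE transcripts on GRCh37. The isoforms are ENST00000529524 of PSMA1 (chr11:14535931-14535960, minus strand), ENST00000488687 of PSME4 (chr2:54093204-54093233, minus strand), ENST00000496925 of PSMD2 (chr3:184025302-184025331, plus strand) and ENST00000495288 of PSMB4 (chr1:151373053-151373082, plus strand).
PSMA1: taattggaagcaGTATCCtttttatgttag
PSME4: atgcatagaaagGTAAGTcagcaaagttct
PSMD2: tggtgggcagtgGTGAGTatccggcagaag
PSMB4: tgatggagagagGTTCATatgaatacaaat

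The PSMA1 isoform had 23.5, 32.0 and 27.0 FPKM in SUZ12 fRIP and 0.922, 4.10 and 7.61 FPKM as lowest, median and highest input, which did not overlap (limma adjusted p 7.12e-06), and was listed at practically 0 in all 3 PABP libraries. It was enriched in 7 fRIPs and depleted in 8. The PSME4 isoform had 12, 18.5 and 17.4 FPKM in SUZ12 fRIP, 0.238, 0.236 and 0.343 FPKM in PABP fRIP and 3.97 to 7.13 FPKM in input, so that neither fRIP overlapped input. The gene row of PSMA1 fell by 1.38 in HNRNPH1 fRIP, while this isoform had 19.6, 21.6 and 15.8 FPKM there.

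Active site subunits were compared with the inducible subunits that replace them through log2 ratios within a library, taken after adding 1 FPKM to both values. Exact permutation tests of 3 ratios in 24 fRIPs gave 72 tests, of which none passed after Benjamini-Hochberg adjustment and 17 had an unadjusted exact p under 0.05. The ratio of PSMB10 to PSMB7 had a mean of -2.48 ± 0.25 (log2, SD, n = 9) in input. It was -0.66 ± 0.25 in DNMT1 fRIP, -0.90 ± 0.43 in HNRNPH1 fRIP and -1.60 ± 0.08 in PABP fRIP, and on the other side -3.95 ± 0.07 in IMP1 fRIP, -3.33 ± 0.26 in PCAF fRIP and -3.16 ± 0.15 in LSD1 fRIP. Each of these 6 reached the smallest exact p that 3 against 9 libraries allow, 0.00455, and an adjusted p of 0.0545, with all libraries outside the input range. In HNRNPH1 fRIP PSMB10 itself had 35.6, 26.5 and 28.2 FPKM, within the input range, while PSMB7 was depleted. The ratios of PSMB8 to PSMB5 and PSMB9 to PSMB6 were higher in SUZ12 fRIP by 1.44 and 1.85 (exact p 0.00909 each, adjusted p 0.0818), but PSMB8 and PSMB9 were near 1 FPKM. That none passed depends on the settings, as 11 of the 72 passed without the first library of input set 1 and 7 with a pseudocount of 0.1 FPKM.

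Members were short, with a median length of 1255 nt over the isoforms weighted by input FPKM, beside 2097 nt for 13575 mRNAs, and the classes differed in it, with 999 nt for PSMA, 968 nt for PSMB, 1445 nt for PSMC and 1509 nt for PSMD. Across 46 members with sequence features, the log2 fold change in HUR fRIP rose with length (Spearman rho 0.65) and with 3′ UTR length (0.62), and in PABP fRIP it fell with length (-0.50) and with the number of exons (-0.57). In IMP1 fRIP it fell with GC content (-0.59) and rose with the share of U (0.67), and in RBBP5 fRIP it fell with GC content (-0.68). Over all mRNAs the same correlations were 0.38 and 0.41, -0.43 and -0.27, -0.43 and 0.46, and -0.56. These are descriptions across genes, which are not independent, and the points share their libraries.

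**Figure D5:**
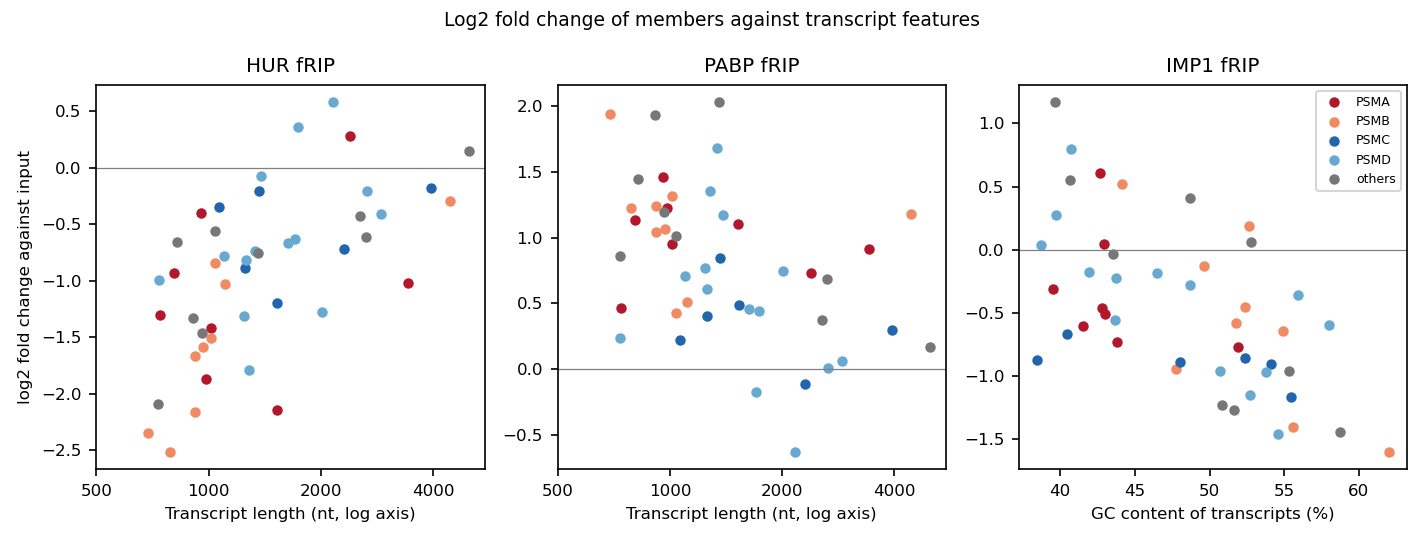
Log2 fold change against input of 46 members (points, coloured by class) in HUR and PABP fRIP against transcript length in nt on a log axis, and in IMP1 fRIP against GC content in percent. Longer members are higher in HUR fRIP and lower in PABP fRIP, and members rich in GC are lower in IMP1 fRIP.

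Genes that act with the proteasome were followed as a list of 32, of its cofactors, its transcription factors, its shuttles and ubiquitin genes. The same fit called 42 enriched and 55 depleted of 768 pairs of gene and fRIP (5.47% and 7.16%), near the 6.90% and 5.52% over all genes. In the 4 fRIPs with the most members called, the list had 7 enriched and 7 depleted in HNRNPH1, 1 and 8 in HUR, 6 and 3 in PABP and 4 and 4 in SUZ12, beside the shares of all genes given for these fRIPs above (24.5% and 7.90%, 6.42% and 6.93%, 11.1% and 14.7%, and 15.3% and 8.60%), so that the enriched counts in HNRNPH1 and SUZ12 fRIP are near the background. RPS27A, which encodes ubiquitin fused to a ribosomal protein, was depleted in HNRNPH1, HUR and SUZ12 fRIP and enriched in PABP fRIP. It had 93.5 to 109 FPKM in HNRNPH1 fRIP, 105 to 121 in HUR fRIP, 121 to 152 in SUZ12 fRIP and 1148 to 1792 in PABP fRIP, against 307 to 476 FPKM in input, with no overlap. Its log2 fold changes were -1.87, -1.75, -1.50 and 1.94 (limma adjusted p 1.26e-16, 5.97e-15, 3.97e-13 and 5.22e-17). POMP, the maturation factor of the core, was at -1.55, -2.23 and -2.04 in the first 3 of these and was enriched in PABP fRIP, with 176, 188 and 214 FPKM against 37.6 to 95.9 FPKM. SHFM1, the smallest lid subunit, was at 1.97 in PABP fRIP. TXNL1 was at -2.31 in HNRNPH1 fRIP.

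Other genes of the list moved opposite to the core. In HNRNPH1 fRIP RAD23B, a shuttle receptor, had 343, 395 and 503 FPKM against 52.8 to 103 FPKM (log2 fold change 2.34, SE 0.18, limma adjusted p 6.56e-18). MAFF and MAFK, small MAF partners of NFE2L1, were at 1.74 and 1.52, with MAFK within 2-fold after centring. In SUZ12 fRIP UBE3C, a ligase bound to the proteasome, had 237, 225 and 329 FPKM against 62.3 to 92.0 FPKM (1.83, SE 0.14, limma adjusted p 4.75e-18), with UBA6 at 1.41 and NPLOC4 at 1.34. In PABP fRIP DDI2, the protease that activates NFE2L1, was at -1.24, UBA6 at -1.16 and KIAA0368, a proteasome adaptor, at -1.15, with the 3 of them within 2-fold after centring. AKIRIN2, which brings proteasomes into the nucleus, was the 1 gene enriched in HUR fRIP, at 1.05, and fell within 2-fold against the matching set (0.86).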

How the data were processed

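RNA-seq of 70 fRIP and 9 input libraries of K562 cells was used, with groups taken from the sample labels. The deposited FPKM of genes and isoforms came from the authors, who aligned to hg19 with TopHat and quantified GENCODE v18 with Cuffdiff 2. The submitters' processing notes also name CASAVA 1.4 and Cuffnorm. The authors' tables of comparisons were used only for their input FPKM, to find which input set was nearest to that of each comparison; their fold changes and p-values were not used. Strand use is not given in the sources used here.

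Genes (or isoforms) reaching 1 FPKM in 2 or more libraries were kept, values were taken as log2 after adding 1 FPKM, and limma (3.58.1, R 4.3.3; trend on mean level) was fitted once to the 79 libraries, with a mean for every protein and a common one for input. Fold changes are thus on the log2(FPKM + 1) scale and understate those of low genes. P-values were adjusted by Benjamini-Hochberg within each comparison. Single values and ratios used two-sided exact permutation tests, with smallest p of 0.00455 (3 against 9) and 0.0182 (2 against 9). Features came from GENCODE v44 on GRCh37. The fit was tested on simulated data and recovered 94.0% of changes of 1.5 on the log2 scale for PABP against input. The simulation used independent noise, without differences between input sets or pairing, and changed only genes above a set level. It thus does not measure recovery for scarce members or under the shifts between input sets. Python 3.11.15 with pandas 2.3.3, scipy 1.17.1 and matplotlib 3.10.9 was used.

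Members, lists and tests were chosen with earlier results of these data known. Genes named are, in each fRIP with 5 or more members called in 1 direction, the 3 with the largest change, those called against 3 or more others, the most often called, highest and lowest of each class, members under 1 FPKM in input, and up to 3 related genes per direction in the 4 fRIPs with most calls; PSMC5, PSMD5 and PSMD2 in single fRIPs, the fRIPs with 4 or fewer calls, the isoforms and the sequences were chosen after their values were seen. Replicate numbers were checked for pairing by the correlation of deviations from group means. Within input set 2 same-numbered libraries correlated at a mean of 0.320, and for CHD1, NUP98, PCAF and WDR5 every pair was over 0.1, so the numbers were taken to pair libraries there, from the data alone. Alternatives are in the closing section. Low FPKM carries the least precision, and the steps of 1 fragment give depth only approximately. Some genes and sequences are not reported here.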

Additional observations from a re-analysis of the deposited data

Results flagged for a closer look

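Among the 9 input libraries, the highest or lowest value of each of the 47 tested members was checked for standing apart from the others. Dixon's criterion was used on the log2(FPKM + 1) scale, and it flags about 1 in 20 groups by chance. PSMB8 stood at 3.6 FPKM in the first library of input set 1, beside a median of 1.68 FPKM over the inputs, and its gap to the next library was 0.497 of the range. PSMB9 stood at 3.31 FPKM in the same library, beside a median of 1.23 FPKM, with a gap of 0.512 of the range. Both are inducible subunits with neighbouring genes on chromosome 6, and no other tested member was flagged. Flags in so few of the 47 members are near the rate that the criterion gives by chance. The 9 inputs were also treated as a single group, although their sets differ.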

How the results depend on the processing

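Results were recomputed with a pseudocount of 0.1 FPKM, without the filter, with libraries centred on their medians, against the matched input set, with a replicate block, with each protein's own libraries only, and without each library in turn. No called fold change of a named gene changed sign. Untested medians did: the median over members became -0.03 in CBP, -0.06 in CHD7, 0.06 in LSD1 and 0.09 in phospho-CBX3 fRIP against the matched set, and 0.17 in LSD1, 0.41 in NUP98 and 0.13 in WDR5 fRIP after centring, and the order of core and regulatory medians turned in CHD1, IMP1, WDR5 and CTCF fRIP against the matched set. Of 64 named pairs of gene and fRIP, 11 lost their call under centring and 14 against the matched set. Leaving out 1 library lost 9 of 768 calls, for AKIRIN2 in HUR fRIP and PSMB4, PSMB6, PSMC2 and PSMD2 in ADAR fRIP. The other pseudocount, no filter, the smaller fits and the block lost none of these 64, which do not include the members of fRIPs with 4 or fewer calls. Centring gave enriched counts of 0 for ADAR, 2 for CBP, 12 for CHD4, 0 for HNRNPH1, 4 for IMP1, 31 for PABP, 39 for PCAF and 2 for WDR5, and depleted counts of 36 for ADAR, 0 for EZH2, 29 for HDAC1, 36 for HNRNPH1, 30 for HNRNPU, 3 for IMP1 and 0 for LSD1, with 71 enriched and 87 depleted pairs of related genes and 140 depleted retained intron isoforms (253 before). The matched set gave enriched counts of 7 for CHD4, 2 for CTCF, 13 for DNMT1, 2 for HNRNPH1, 2 for IMP1, 12 for PABP, 0 for PCAF, 1 for STAG2 and 3 for SUZ12, and depleted counts of 1 for ADAR, 0 for CBX3, 1 for DNMT1, 10 for EZH2, 2 for HDAC1, 13 for HNRNPH1, 1 for HNRNPU, 4 for IMP1, 0 for LSD1, 0 for STAG2 and 8 for SUZ12, with 240 depleted coding isoforms (365 before). The replicate block, in which the second STAG2 library has a level of its own as its column number is not in the labels, left 2 depleted members for EZH2 and 0 for STAG2, the block within input set 2 left 0 enriched members for PCAF, and the pairing changed no other call by over 1.5 times. With a pseudocount of 0.1 FPKM, 464 retained intron isoforms were depleted and 7 paired ratios passed. Leaving out 1 library gave 1 to 5 depleted members for CBX3 (1 without its replicate 2 and 5 without its replicate 3), 1 to 7 for EZH2, 0 to 3 for LSD1, 0 to 1 for STAG2 and phospho-CBX3, and 0 to 1 enriched for CBP, CTCF and PHF8, 2 to 5 for CHD4 and 0 to 9 for PCAF. Without the first library of input set 1, an alternative chosen after seeing the data, 11 paired ratios passed and 27 had an unadjusted exact p under 0.05, and over all libraries left out these ranged from 0 to 11 and from 15 to 27. The cause of these shifts was not tested. Depth limits single values most for ADAR and for members near 1 FPKM.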
